A study of Mus musculus with 6 samples.

Results

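The genes described here encode 10 enzymes that lengthen, desaturate or build into ceramides the long-chain fatty acids of the testis: the elongase genes Elovl1, Elovl2, Elovl4, Elovl5 and Elovl6, the front-end desaturase genes Fads1 and Fads2, the stearoyl-CoA desaturase genes Scd1 and Scd2, and the ceramide synthase gene Cers3. They were taken by symbol, and all 10 were found among the 54532 genes of the deposited table. Mouse testis RNA was sequenced as 6 libraries: 3 came from wild-type (WT) mice and 3 carried a knockout (KO) of 1700052I22Rik, a long non-coding RNA gene. The study asked what this transcript does in spermatogenesis. No strain, age or deleted interval was found in the labels, nor whether the replicates were separate animals. The p-values therefore refer to the spread among these libraries, which may be technical. Library totals ran from 17635045 to 18117593 counts. Counts of 1700052I22Rik were 185, 175 and 218 for WT 1 to 3, and each KO library held 0. Testis germ cell markers were abundant in each library, and 3 of 8 epididymis markers (Lcn5, Lcn8 and Spag11b) had no count in any.

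Polyunsaturated fatty acids of the n-3 and n-6 series are made from dietary precursors by alternating steps of desaturation and elongation. Fads2 carries out the first desaturation and Fads1 a later one. Elovl5 and Elovl2 add carbon units between and after these steps. The testis is rich in the end products, which are needed for sperm formation, and male mice that lack Elovl2 or Fads2 are infertile. Germ cells also hold sphingolipids with very long polyunsaturated acyl chains, which Cers3 attaches to the sphingoid base. Scd1, Scd2 and Elovl6 make monounsaturated and saturated chains and so belong to a neighbouring branch, as does Elovl1, which lengthens saturated chains.

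Stretches of promoter are shown for Elovl2 and Cers3, the most abundant of these transcripts per length, and for Elovl5, whose level followed those of Fads1 and Fads2 from library to library. The sequences are from RefSeq on GRCm38.p6, the assembly called mm10, and windows were found for 7 of the 10 genes; Fads1, Scd1 and Scd2 had none. Each is printed 5′ to 3′ on the strand of the gene and ends at the last base before the annotated first exon, at chr13:41220406-41220653 (minus strand), chr7:66743254-66743503 (plus strand) and chr9:77917115-77917363 (plus strand). Capitals mark matches to the motifs searched.
Elovl2: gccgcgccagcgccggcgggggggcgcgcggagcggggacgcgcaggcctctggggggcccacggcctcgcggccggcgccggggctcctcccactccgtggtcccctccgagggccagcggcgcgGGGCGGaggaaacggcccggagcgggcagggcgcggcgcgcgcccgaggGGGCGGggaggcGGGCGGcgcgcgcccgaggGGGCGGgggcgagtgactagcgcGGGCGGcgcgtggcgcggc
Cers3: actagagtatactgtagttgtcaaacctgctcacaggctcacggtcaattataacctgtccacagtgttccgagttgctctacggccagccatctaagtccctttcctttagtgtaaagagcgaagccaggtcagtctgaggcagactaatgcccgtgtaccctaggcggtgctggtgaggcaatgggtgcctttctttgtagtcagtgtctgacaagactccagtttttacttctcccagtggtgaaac
Elovl5: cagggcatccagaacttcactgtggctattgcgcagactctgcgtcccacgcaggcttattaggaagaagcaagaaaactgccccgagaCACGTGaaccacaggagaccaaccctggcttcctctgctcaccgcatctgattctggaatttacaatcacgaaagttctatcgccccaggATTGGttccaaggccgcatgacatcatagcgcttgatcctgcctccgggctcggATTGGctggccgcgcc

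The 3 stretches differ widely in base composition. That of Elovl2 held 48 CG dinucleotides in 248 bases and was 87.1% G and C. That of Elovl5 held 14 in 249 bases at 55.8%, and that of Cers3 held 6 in 250 bases at 49.6%. The median over the 250 bases before the start in 32851 RefSeq windows was 6. Motifs were searched on both strands in windows of 300 bases, 250 before the start and 50 after. The GC box GGGCGG occurred 5 times before the start of Elovl2 and is found in 35.7% of all windows. The CCAAT box occurred at 2 places before the start of Elovl5, in reverse as ATTGG, and is found in 37.4% of windows. Elovl5 also held the E-box CACGTG (7.15% of windows) and, at base 4 after its start, the cAMP response element TGACGTCA (1.79% of windows). In Cers3 none of the motifs searched was found, and the sterol regulatory element TCACCCCAC (0.551% of windows) and the NR5A1 site CAAGGTCA (1.56%) were found in 0 of the 9 windows of these genes. These are matches of letters and no binding was measured.

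The deposited counts were scaled to library size with TMM factors and are given as CPM, a count relative to library depth, and levels of different genes were compared per kilobase of gene length (RPKM). Elovl2 was the most abundant of the 10 transcripts, with a mean of 77.7 RPKM over the 6 libraries, followed by Cers3 at 48.3, Scd2 at 37.4 and Fads2 at 37.1. Elovl5 (15.5 RPKM) and Fads1 (12.5) were intermediate. Scd1 (2.09 RPKM), Elovl1 (1.82) and Elovl6 (1.16) were scarce, and Elovl4 stood at 0.0923 RPKM. Elovl2 exceeded Cers3 in 6 of 6 libraries, as Cers3 did Scd2, and their ranges did not overlap. With the deposited lengths Scd2 and Fads2 could not be ordered, since each was the higher in 3 libraries, and Scd1 exceeded Elovl1 in 4 of 6. Elovl5 exceeded Fads1 within each library although their ranges overlapped. The deposited length of Fads2, 1508 bases, is shorter than the 3295 exonic bases of GENCODE M21, and that of Fads1, 3456 bases, is shorter than 4812. With the M21 lengths, an alternative chosen after seeing the data, Fads2 had 17.0 RPKM, close to Elovl5, and Fads1 had 8.99. The order of the 10 genes by mean was the same, but Scd2 (33.1 to 43.3 RPKM) then lay wholly above Fads2 (10.3 to 24.4).

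**Figure D1:**
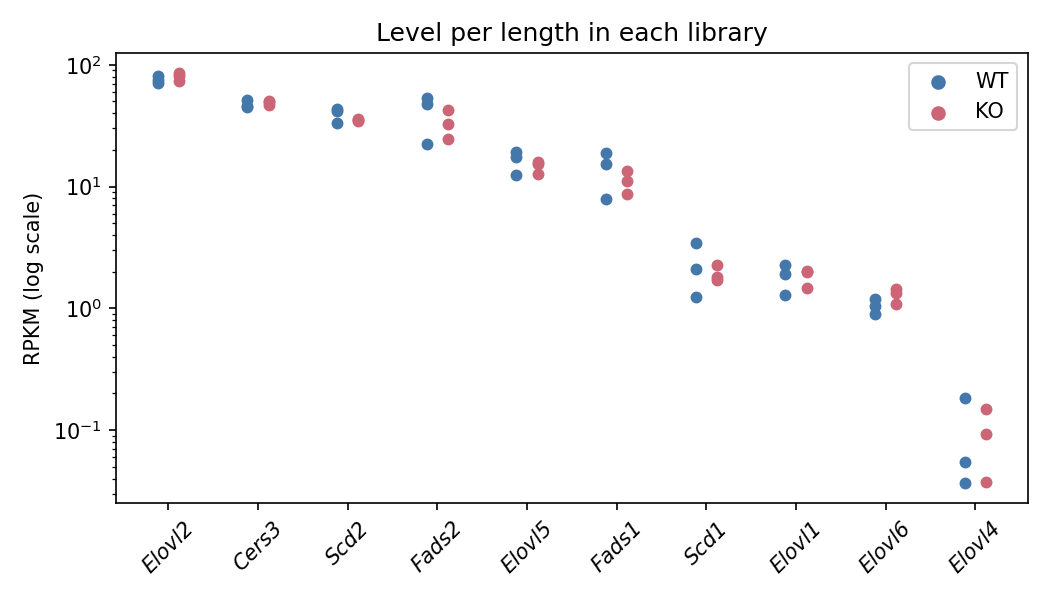
RPKM (log axis) of each of the 10 genes in each library, 1 point per library, WT in blue and KO in red. Elovl2 lies highest, between 71.1 and 84.8 RPKM, and Elovl4 lowest, between 0.0368 and 0.182.

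No difference between KO and WT larger than the spread between libraries was detected for the enzymes of the set. Of the 9 genes that passed the low-count filter, 0 were called by edgeR's quasi-likelihood test (Benjamini-Hochberg adjustment over 19320 genes), where 0.00518% of genes were called, namely 1700052I22Rik alone. At an unadjusted p under 0.05 there were 0 of 9 in edgeR, DESeq2 and limma-voom, against 4.63% of all genes in edgeR. Without WT 1, however, 5 of 9 had such a p in edgeR, Fads1, Fads2, Elovl5, Scd1 and Scd2, each lower in KO, and without WT 1 and KO 2 it was 4, with 0 of 9 called in either fit. The share of all genes with such a p in those fits is not given here, and 4.63% refers to the fit of all 6 libraries. The groups' CPM values did not overlap for 0 of the 9, against 9.32% of all genes. Fold changes were small: 5 lay below 0 and 4 above, with a median log2 fold change of -0.16, beside a median of -0.0025 over all genes. The lowest was -0.33 and the highest 0.30, and for 9 of 9 genes the 95% confidence interval lay within a factor of 2 in either direction. Adjusted p in edgeR lay between 0.965 and 0.995.

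**Figure D2:**
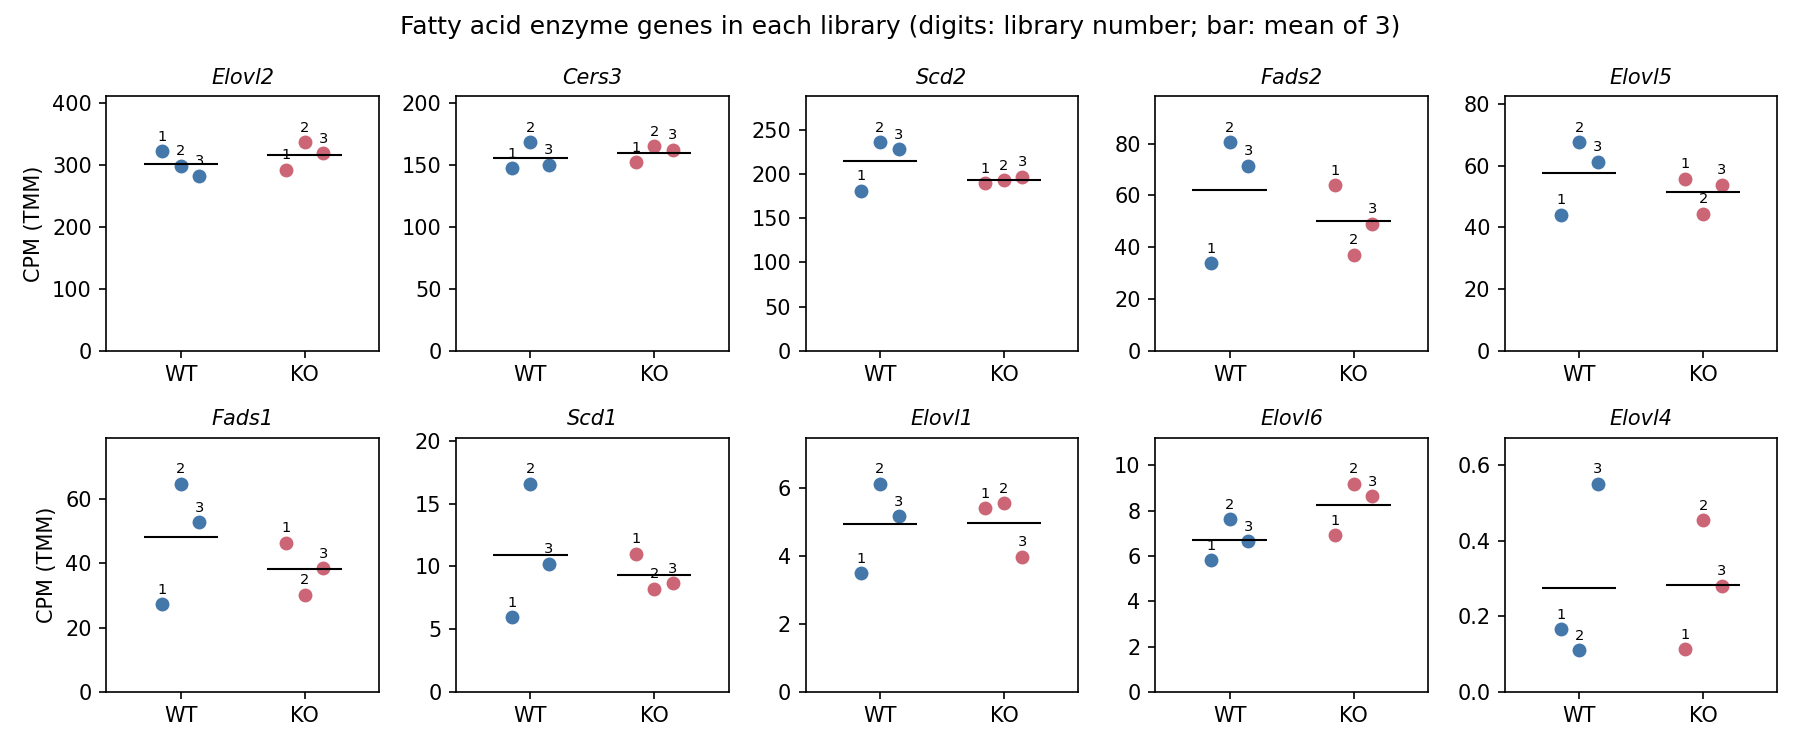
CPM of each gene in each library, 1 panel per gene with its own axis from 0; digits give the library number and bars the mean of 3 libraries. The WT and KO points overlap in each of the 10 panels, and WT 1 lies lowest in 8 of them.

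Elovl2 and Elovl5 are the elongases of the polyunsaturated branch. Elovl2 (ENSMUSG00000021364, chr13:41182381-41220405, minus strand) stood at 322, 298 and 282 CPM across WT 1 to 3 and at 292, 336 and 318 across KO 1 to 3. It was the steadiest gene of the set together with Cers3, and the KO values lay among and just above those of WT. Its log2 fold change was 0.07 (95% interval -0.10 to 0.23, edgeR adjusted p = 0.967), or 1.05-fold with limits of 0.935 and 1.18. Elovl5 (ENSMUSG00000032349, chr9:77917364-77984519, plus strand) stood at 44.1, 67.6 and 61.3 CPM across the WT and at 55.8, 44.4 and 53.9 across the KO libraries. WT 1 and KO 2 were low and nearly equal, and the other 4 libraries were higher. The log2 fold change of Elovl5 was -0.17 (95% interval -0.46 to 0.12, edgeR adjusted p = 0.967). It was -0.33 without WT 1 (adjusted p = 0.631), -0.04 without WT 2 (adjusted p = 1.0) and -0.07 without KO 2 (adjusted p = 0.958). The ratio of Elovl2 to Elovl5 counts within a library was 7.31, 4.41 and 4.6 in WT and 5.24, 7.58 and 5.90 in KO. It was highest in WT 1 and KO 2, and its log2 difference between KO and WT was 0.22 (two-sided exact permutation p = 0.5, adjusted over 3 ratios 1, where 3 against 3 cannot go below 0.1). Leaving out WT 1 raised that difference to 0.45, and leaving out WT 2 or KO 2 lowered it to 0.09 or 0.07.

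Fads2 and Fads1 encode the desaturases of the polyunsaturated branch and lie near each other on chromosome 19, on opposite strands and 81384 bases apart. Fads2 (ENSMUSG00000024665, chr19:10064164-10101503, minus strand) read 33.8, 80.5 and 71.4 CPM for the WT and 64.0, 37.0 and 49.1 for the KO libraries. Fads1 (ENSMUSG00000010663, chr19:10182888-10196870, plus strand) stood at 27.3, 64.7 and 52.7 CPM across the WT and at 46.3, 30.2 and 38.4 across the KO libraries. Both were low in WT 1 and KO 2 and highest in WT 2, with the KO values inside the WT range. Fads2 and Fads1 varied 2.38-fold and 2.37-fold between the lowest and the highest library, which is more than Elovl2 (1.19-fold) or Cers3 (1.14-fold). The biological coefficient of variation that edgeR estimated within genotypes was 0.208 for Fads2 and 0.195 for Fads1, against a common value of 0.112 over all genes.

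The difference between genotypes was smaller than this spread for both desaturases. The log2 fold change was -0.31 for Fads2 (95% interval -0.82 to 0.21) and -0.33 for Fads1 (-0.82 to 0.15), with edgeR adjusted p of 0.967 and 0.965. Single libraries set its size. Without WT 1 it was -0.60 for Fads2 and -0.62 for Fads1, and without WT 2 it was -0.08 and -0.07, with adjusted p between 0.424 and 1.0 in edgeR. Without WT 1 and KO 2, left out together after the data were seen, it was -0.42 and -0.47 (edgeR adjusted p = 0.362 and 0.320). The 2 genes kept a near-constant proportion. The ratio of Fads1 to Fads2 counts was 0.807, 0.804 and 0.739 in WT and 0.723, 0.815 and 0.783 in KO, a spread of 1.13-fold, with a log2 difference of -0.02 (two-sided exact permutation p = 0.7, adjusted 1).

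**Figure D3:**
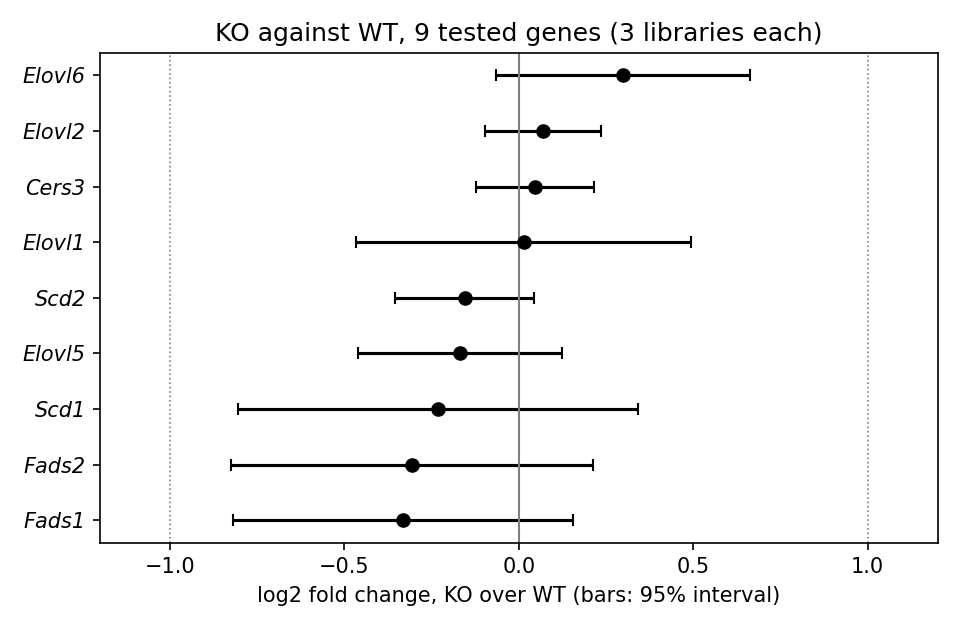
Log2 fold change of KO over WT for the 9 tested genes, points with 95% confidence intervals from the edgeR fit; dotted lines mark a factor of 2. Each interval includes 0 and none reaches a dotted line, and those of Fads1, Fads2 and Scd1 are the widest.

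Fads1, Fads2 and Elovl5 ranked the 6 libraries in the same order, WT 1, KO 2, KO 3, KO 1, WT 3 and WT 2 from low to high. The summed level of Leydig cell markers, genes of the steroid-producing cells between the tubules, followed the same order. The 9 markers of that list, of which 9 were detected, summed to 300, 989 and 780 CPM for WT 1 to 3 and to 743, 334 and 538 for KO 1 to 3. The range was 300 to 989 CPM in WT and 334 to 743 in KO. Its most abundant gene, Cyp17a1, an enzyme of androgen synthesis, read 21.1, 358 and 243 CPM for the WT and 277, 65.1 and 145 for the KO libraries. Most single markers did not share this order in full, and Cyp17a1 itself was higher in KO 1 than in WT 3. WT 1 was the lowest library for 7 of 9, but Insl3, a Leydig cell hormone, was at 78.8, 83.8 and 82.6 CPM over the WT and 55.6, 17.4 and 55.0 over the KO libraries, so it was not low in WT 1 and its groups did not overlap (log2 fold change -0.94, edgeR adjusted p = 0.965). Of the 9 markers 9 had a log2 fold change below 0, beside 50.7% of all tested genes, with a median of -0.30 and 0 called in edgeR. At an unadjusted p under 0.05 in edgeR 1 of the 9 was lower in KO, beside 2.22% of all genes. The groups did not overlap for 1 of the 9, Insl3, beside 9.32% of all genes. The summed Leydig level spanned 3.30-fold, more than any of the 3 enzymes, and its part in their levels was not tested. In bulk tissue fewer cells of a type and less RNA per cell cannot be told apart.

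Markers of other cell types spread less between libraries. The 11 Sertoli cell markers summed to 1650 to 1870 CPM in WT and 1590 to 1660 in KO, and the 8 macrophage markers to 93.3 to 124 and 82.9 to 95.4. All 8 macrophage markers had a log2 fold change below 0, beside 50.7% of all tested genes, with a median of -0.36 and 0 called in edgeR. At an unadjusted p under 0.05 in edgeR 4 of the 8 were lower in KO, beside 2.22% of all genes. Of the Sertoli cell markers 7 lay below 0 and 4 above, and of the spermatocyte markers 2 below and 7 above. The 9 spermatocyte markers summed to 5800 to 5960 CPM in WT and 5920 to 6390 in KO, and the 8 markers of elongating spermatids to 15500 to 17800 and 14800 to 18200. WT 1 and KO 2 also stood apart on the leading principal component of all tested genes (26.6% of the variance), with scores of 22.8 and 30.2, whereas the other 4 libraries scored between -17.5 and -6.98. The labels record no batch.

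**Figure D4:**
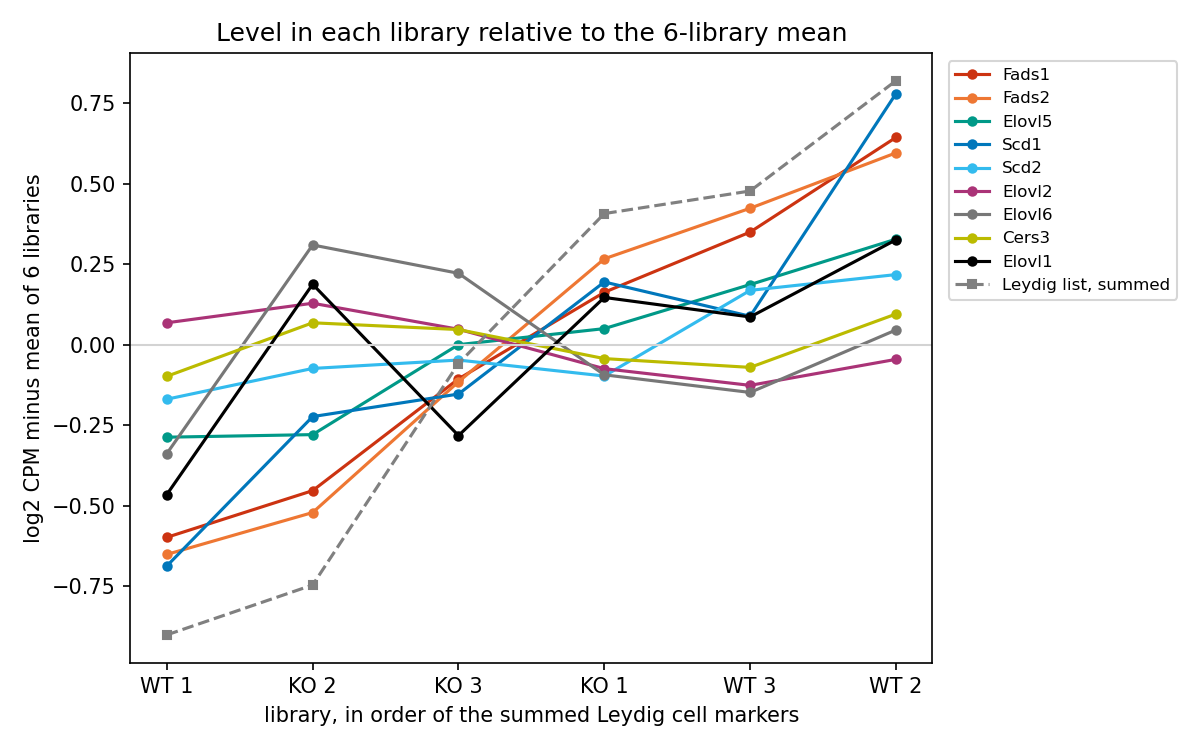
Log2 CPM of 9 genes minus each gene's mean over the 6 libraries, with libraries placed in order of the summed Leydig cell markers (dashed grey line, same scale). Fads1, Fads2 and Elovl5 climb with the dashed line from WT 1 to WT 2, whereas Elovl2 and Cers3 stay within 0.13 of 0.

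The stearoyl-CoA desaturases, which make oleate and palmitoleate, were represented mainly by Scd2. Scd2 (ENSMUSG00000025203, chr19:44293676-44306864, plus strand) stood at 181, 236 and 228 CPM across the WT and at 190, 193 and 197 across the KO libraries. The KO libraries were close together, between WT 1 and the other WT libraries. The log2 fold change was -0.16 (95% interval -0.35 to 0.04, edgeR adjusted p = 0.965), and it was -0.27 without WT 1 (adjusted p = 0.568) and -0.08 without WT 2 (adjusted p = 1.0). Scd1 (ENSMUSG00000037071, chr19:44394451-44407709, minus strand), the main isoform of liver and fat, read 5.94, 16.6 and 10.2 CPM for the WT and 11.0, 8.23 and 8.64 for the KO libraries. Its spread was the widest of the tested genes, 2.80-fold, from WT 1 to WT 2. The log2 fold change of Scd1 was -0.23 (95% interval -0.80 to 0.34, edgeR adjusted p = 0.967). It was -0.53 without WT 1 (adjusted p = 0.674) and 0.20 without WT 2 (adjusted p = 1.0), so the direction depended on WT 2. Scd1 counts were 0.0329, 0.0703 and 0.0448 of those of Scd2 in WT and 0.0581, 0.0426 and 0.0439 in KO, with a log2 difference of 0.02 (two-sided exact permutation p = 1, adjusted 1).

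Elovl6 and Elovl1 lengthen saturated and monounsaturated chains. Elovl6 (ENSMUSG00000041220, chr3:129532355-129638495, plus strand), which turns palmitate into stearate, stood at 5.82, 7.63 and 6.66 CPM across the WT and at 6.92, 9.19 and 8.64 across the KO libraries. It had the highest fold change of the set, with KO 2 and KO 3 above and KO 1 within the WT values. The log2 fold change was 0.30 (95% interval -0.07 to 0.66, edgeR adjusted p = 0.965). With 1 library left out it ran from 0.21 without WT 1 to 0.41 without KO 1 (edgeR unadjusted p = 0.041, adjusted p = 0.871). Without WT 1 and KO 2, left out together after the data were seen, it was 0.13 (adjusted p = 0.899). Fat cell markers lay at either extreme in KO 2, where Elovl6 was highest, with margins of unequal size. Of the 9, 5 were at their highest there (Lpl, Fabp4, Cidec, Lep and Cfd) and 3 at their lowest (Adipoq, Retn and Plin1). Cidec, Lep and Cfd were at 1.36, 0.908 and 1.53 CPM in KO 2. Their highest values elsewhere were 0.555 (WT 1), 0.337 (KO 3) and 0.111 (WT 2). Lpl and Fabp4 were at 5.9 and 1.93 CPM in KO 2, against 3.9 (WT 2) and 1.16 (WT 3). Adipoq, Retn and Plin1 were at 10.6, 0.738 and 0.965 CPM in KO 2. Their lowest values elsewhere were 10.7 (WT 1), 1.13 (KO 1) and 1.23 (KO 3). As ratios, the margins of Cidec, Lep and Cfd were wider than these, at 24, 16 and 27 counts in KO 2. The adipocyte list as a whole, 9 of 9 detected, summed to 349 to 360 CPM in WT and 335 to 366 in KO, of which Pnpla2 alone held 332 on average. The part of these genes in the level of Elovl6 was not tested.

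Elovl1 (ENSMUSG00000006390, chr4:118428093-118432953, plus strand), which makes saturated chains for sphingolipids, read 3.49, 6.13 and 5.17 CPM for the WT and 5.4, 5.56 and 3.98 for the KO libraries. The groups were interleaved and the log2 fold change was 0.01 (95% interval -0.47 to 0.49, edgeR adjusted p = 0.995). Its sign turned when WT 1, KO 1 or KO 2 was left out, at -0.18, -0.05 and -0.07 (adjusted p = 0.885, 0.986 and 0.987). Elovl1 shares 53 exonic bases with Cdc20 on the opposite strand, and Elovl6 shares 34 with Gm35986. No source used here gives the strand setting of the counts, so reads of such pairs cannot be told apart.

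Cers3 and Elovl4 belong to the making of ceramides with very long chains, where Elovl4 lengthens the polyunsaturated acyl chains that Cers3 uses. Cers3 (ENSMUSG00000030510, chr7:66743504-66823691, plus strand) stood at 147, 168 and 150 CPM across the WT and at 152, 165 and 162 across the KO libraries. The KO values fell inside the WT range, and the log2 fold change was 0.05 (95% interval -0.12 to 0.22, edgeR adjusted p = 0.977). Elovl4 (ENSMUSG00000032262, chr9:83778692-83806277, minus strand) had 3, 2 and 10 counts in WT and 2, 8 and 5 in KO. It did not pass the low-count filter and was not tested. At these counts a difference between genotypes was not detectable.

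Genes whose level resembled that of an enzyme across the 6 libraries were taken for the 3 members with the largest spread of log2 CPM, among 11032 protein-coding genes of at least 5 CPM on average. These likenesses are a description over 6 libraries of similar depth, in which the summed Leydig cell markers ran from 300 to 989 CPM. For each member the 3 highest r among 11032 candidates were taken, so the values are high by choice and were not tested. For Fads2 the closest were Hist1h1c, a linker histone gene (Pearson r = 0.996), Cactin (0.989) and Zfp703 (0.989). Hist1h1c read 5.55, 11.8 and 11.1 CPM for the WT and 9.57, 6.07 and 7.35 for the KO libraries, again low in WT 1 and KO 2. For Scd1 they were Hspe1, a mitochondrial chaperonin gene (0.994), Itpa (0.992) and Alas1, which starts haem synthesis (0.985). For Elovl4 they were Lrba (0.978), Smim15 (0.973) and Fat1 (0.967), a likeness that rests on 2 to 10 counts of Elovl4 per library.

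The other genes of the pathway likewise held 0 called members in edgeR. Besides the set, 5 of 6 other elongase and desaturase genes were tested (Fads6, Scd4, Fads3, Elovl7 and Scd3), with log2 fold changes from -0.27 for Elovl7 to 0.44 for Scd4 and 0 at an unadjusted p under 0.05. Fads3, which lies 4492 bases from Fads2, stood at 2.50, 3.18 and 3.52 CPM across the WT and at 4.28, 1.70 and 1.91 across the KO libraries. Fads3 was highest in KO 1 and low in KO 2 and KO 3. For the other enzymes of the elongation cycle and their electron donors, 12 of 13 were tested, with a median log2 fold change of -0.05 and 0 at an unadjusted p under 0.05. Hacd1, a dehydratase of that cycle, had -0.34 and Tecr, its final reductase, -0.18. The cytochrome b5 reductase genes Cyb5r1 and Cyb5r3 had -0.17 and -0.10.

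Fatty acid synthesis and its regulators had 15 of 15 genes tested and a median log2 fold change of -0.10, with 0 of them higher and 1 of them lower before adjustment (p under 0.05), beside 2.41% and 2.22% of all genes. That gene was Mlxipl, encoding the carbohydrate-responsive transcription factor ChREBP, read 4.22, 3.62 and 5.17 CPM for the WT and 2.87, 3.35 and 3.03 for the KO libraries. The groups of Mlxipl did not overlap, and its log2 fold change was -0.49 (95% interval -0.94 to -0.05, edgeR adjusted p = 0.965). Nr1h2, a liver X receptor gene, had -0.19, Scap, the escort of the sterol-sensing factors, -0.19 and Fasn, fatty acid synthase, -0.10.

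For ceramide and glycosphingolipid enzymes other than Cers3, 20 of 23 were tested, with a median of -0.04. At an unadjusted p under 0.05 in edgeR 0 were higher and 1 was lower, beside 2.41% and 2.22% of all genes. This was Degs1, the dihydroceramide desaturase gene, stood at 16.9, 19.2 and 17.1 CPM across the WT and at 13.6, 15.2 and 15 across the KO libraries (log2 fold change -0.28, 95% interval -0.54 to -0.02, edgeR adjusted p = 0.965). The groups did not overlap for 3 of the 20, Degs1 and Cers5 among them, against 9.32% of all genes. St3gal5, which makes the ganglioside GM3, had a log2 fold change of -0.17, Fa2h, a fatty acid hydroxylase gene, -0.16 and Cers5 -0.13.

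Genes that activate fatty acids or place them in phospholipids had 19 of 20 tested, a median of 0.00094 and 0 at an unadjusted p under 0.05. Acsbg1 had a log2 fold change of -0.24, Acsl5 0.26, Acsl6, an acyl-CoA synthetase that prefers polyunsaturated chains, -0.13 and Lpcat2 -0.55. Acsl6 read 100, 93.7 and 96.6 CPM for the WT and 88.9, 93.6 and 83.5 for the KO libraries. Its groups did not overlap, by a margin far smaller than the spread within either. For peroxisomal beta-oxidation, which shortens very long chains, 12 of 13 were tested with a median of -0.07 and 0 at an unadjusted p under 0.05. Scp2 had a log2 fold change of -0.26, Ehhadh -0.49 and Hsd17b4 -0.11.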

How the data were processed

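The file deposited by the authors holds, per its header, read counts (whole numbers) by Ensembl gene for 6 testis libraries and a gene length in bases. HISAT2 2.0.0 and the mm10 build are named in the submitters' processing notes. No source used here gives the counting tool, annotation release or strand setting. Columns were matched to samples by the names in the titles.

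Genes were filtered with filterByExpr (minimum count 10, minimum total 15), which left 19320, and scaled by TMM factors of 0.992 to 1.01. KO and WT were compared with edgeR 4.0.16 (glmQLFit, glmQLFTest, no covariate, Benjamini-Hochberg over all tested genes, threshold 0.05) in R 4.3.3, and intervals are 95% intervals from the fit. A prior of 2 counts was used for log2 CPM. Ratios were compared by exact permutation. Alternatives were other scalings and filters, DESeq2 1.42.0, limma-voom (limma 3.58.1), the replicate number as a block and each library left out. No 2 libraries agreed within sampling noise (lowest chi-square per degree of freedom 4.35).

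The members and gene lists were chosen with earlier results of these data known. The naming rule took the 10 members, 1700052I22Rik, up to 4 genes per other pathway list by smallest p, and the 3 most similar genes for each of 3 members. Scd3, Insl3 and the adipocyte genes were named after their values were seen. Not every gene this rule takes is reported here.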

Additional observations from a re-analysis of the deposited data

How the results depend on the processing

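Of the 9 tested enzymes 0 were called under any alternative, and the direction held for Elovl2, Elovl5, Elovl6, Fads1, Fads2 and Scd2 under each. The number of called genes over the whole table was 1, and it was 50 with no low-count filter, 2 with DESeq2, 1 to 3 with 1 library left out and 9 without WT 1 and KO 2 together, a choice made after seeing the data. The cause was not tested. At an unadjusted p under 0.05 there were 0 enzymes in the edgeR fit of all libraries, 2 with no low-count filter, 5 without WT 1, 1 without KO 1 and 4 without WT 1 and KO 2. The shares of all genes at that p in these refits are not given here. The log2 fold change of Elovl1 was -0.12 with limma-voom and sample weights, -0.18 to 0.20 with 1 library left out and -0.26 without WT 1 and KO 2, and that of Cers3 was -0.0085 in the last setting. Leaving out 1 library gave Scd1 -0.53 to 0.20, Elovl5 -0.33 to -0.04, Elovl2 0.02 to 0.12 and Cers3 0.01 to 0.11. It moved the log2 difference of the Elovl2 to Elovl5 ratio from 0.07 to 0.45, the log2 difference of the Fads1 to Fads2 ratio from -0.060 to 0.030, and that of the Scd1 to Scd2 ratio from -0.23 to 0.31. With the replicate number as a block 1 gene and 0 enzymes were called, and Fads1 had -0.28 and Fads2 -0.26. Deviations of same-numbered libraries from their group means correlated weakly (r = -0.17, -0.03 and 0.11 for numbers 1 to 3). The highest value was that of WT 1 with KO 2 (0.185). With 3 libraries per group such values cannot settle whether the numbers pair the libraries, and the labels do not say. Depth limits Elovl4, at 2 to 10 counts per library.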
